A study of Mus musculus with 8 samples.

Results

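Plasma microRNAs (miRNAs) of mice given imatinib (IMB) were compared with those of mice given only the solvents (CTRL). The comparison used the 5 arrays titled as IMB (3 pools) or CTRL (2 pools) of the 8 in the series, the other 3 being from mice given doxorubicin (DOX). The array carries probes for 1881 mouse miRNAs. On at least 1 of the 5 arrays 419 were detected, and on all 5 arrays 314. The 354 detected on every IMB array or on every CTRL array were tested. All mice were females of the outbred NMRI stock, aged 3 months. IMB mice received 100 mg/kg imatinib by mouth in water each day for 9 days. DOX mice received 4 injections of 3 mg/kg doxorubicin in saline into the tail vein, given on alternate days. CTRL mice received the solvents and no drug. Blood was taken from the aorta the day after the last dose, and each array measured a pool of 3 mice, with RNA extracted from 300 µl of its plasma. A pool hides the spread between its mice, and outbred mice also differ in genotype. The question, from the title of the series, was which circulating miRNAs imatinib changes.

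Imatinib inhibits the tyrosine kinases ABL, KIT and the PDGF receptors and is used against leukaemia and gastrointestinal stromal tumours. miRNAs are short RNAs that pair with messenger RNAs, mainly through the seed near their 5′ end, and lower the output of those messages. Plasma carries miRNAs in vesicles and bound to proteins, shed by blood cells, vessel walls and organs. Some are known chiefly from one source, such as miR-451a from red cells, miR-122-5p from liver, and miR-1a-3p and miR-133a-3p from muscle. In plasma, fewer cells of a type and less RNA released per cell cannot be told apart.

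Mature sequences came from RefSeq (build GRCm38.p6), which listed 301 of the 354 tested miRNAs. They are written 5′ to 3′ with the seed, bases 2 to 8, in capitals. The first is the only miRNA that passed the test, the next 3 are those with the largest other differences toward IMB that the sequence table lists, and miR-144-3p is a red cell miRNA with even values.
miR-7058-5p: uAGAGGGGaggugaccguggaagu
miR-133b-3p: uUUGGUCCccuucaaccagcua
miR-6354: uGCCCUGGggaucaggucucu
miR-5100: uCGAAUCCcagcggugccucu
miR-144-3p: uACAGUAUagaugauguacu

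A second set is shown because its members stood lower in every IMB pool than in either CTRL pool.
miR-335-5p: uCAAGAGCaauaacgaaaaaugu
miR-3059-3p: cCUCUAGGgaagagaagguugg
miR-511-3p: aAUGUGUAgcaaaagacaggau
miR-128-3p: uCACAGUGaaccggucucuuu
miR-1224-5p: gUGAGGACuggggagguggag

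The last set shows the 3 seed families whose tested members with a listed sequence all lay on one side of CTRL. The miR-30 family was left out. Its median was near 0, and miR-30b-5p, which was not among the listed sequences, lay on the other side. The shared capitals mark each family.
miR-29a-3p: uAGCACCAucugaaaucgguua
miR-29b-3p: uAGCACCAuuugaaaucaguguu
miR-29c-3p: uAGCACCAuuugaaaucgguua
miR-130a-3p: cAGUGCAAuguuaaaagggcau
miR-130b-3p: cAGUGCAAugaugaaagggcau
miR-301a-3p: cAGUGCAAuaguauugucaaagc
miR-721: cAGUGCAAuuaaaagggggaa
miR-200b-3p: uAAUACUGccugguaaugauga
miR-200c-3p: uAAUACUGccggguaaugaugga
miR-429-3p: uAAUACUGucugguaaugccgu

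Values are log2 total gene signals, Agilent's sum per miRNA, scaled so that the 75th percentile of the miRNAs detected on all 8 arrays is equal between arrays. Signals below a floor of 0.73 on that log2 scale, undetected miRNAs included, were set to the floor. Signal also depends on the probe, so a level is compared between arrays, and "bright" and "dim" describe the signal of a probe, not the amount of a miRNA. Before scaling that percentile was 59.3, 166 and 96.7 intensity units in IMB pools 1, 2 and 3 and 88.1 and 134 in CTRL pools 1 and 2. The arrays detected 329, 409 and 367 miRNAs in IMB and 355 and 392 in CTRL, which gave 368.3 ± 40.0 (SD, n = 3) against 373.5 ± 26.2 (SD, n = 2), and the exact 2-sided permutation p was 0.9. That test can reach no p below 0.1 with 3 arrays against 2. The labels call the pools biological replicates, so p-values measure the spread between pools.

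IMB pool 1 stood apart from the other IMB pools, and results are therefore also given without it. The median size of the difference per miRNA was 0.45 log2 units between IMB pools 1 and 2 and 0.49 between IMB pools 1 and 3. It was only 0.19 between IMB pools 2 and 3 and 0.21 between the CTRL pools. IMB pool 1 was the pool farthest from the other IMB pools for 225 of the 354 miRNAs (63.6%). It also had the dimmest signal and the fewest detected miRNAs of the 5 arrays. Of the 37 miRNAs tested only through CTRL, 34 were not detected in IMB pool 1, against 3 miRNAs tested only through IMB. IMB pool 1 and CTRL pool 1 lay in row 1 of the slide, and IMB pools 2 and 3 and CTRL pool 2 in row 2. The part of signal and row in these departures was not tested.

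Imatinib plasma differed little from control plasma across most miRNAs, and 1 miRNA, miR-7058-5p, rose. Of the muscle miRNAs, miR-133a-3p, miR-133b-3p and miR-1a-3p had higher means by 2.28 to 3.35 log2 units, with a wide spread between IMB pools, and did not pass the test. The difference, IMB minus CTRL, had a median of -0.04 log2 units over the 354 miRNAs, with quartiles of -0.27 and 0.13 and a range of -1.45 to 3.35. For 293 miRNAs (82.8%) it lay within 0.5 log2 units of 0, while 7 exceeded 1 and 4 were below -1. IMB means were above CTRL means for 157 miRNAs (44.4%) and below for 197.

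With limma and Benjamini-Hochberg adjustment over the 354 miRNAs, 1 miRNA was higher in IMB at an adjusted p under 0.05 (0.282% of those tested) and 0 were lower. Before adjustment, limma's p was under 0.05 for 15 miRNAs with a higher and 15 with a lower IMB mean, 4.24% of those tested in each direction. All 3 IMB pools lay above both CTRL pools for 35 miRNAs (9.89%) and below both for 42 (11.9%), 21.8% in all. Without IMB pool 1 limma called 3 higher and 1 lower, and without CTRL pool 1 it called none (7 higher and 13 lower before adjustment). Without CTRL pool 2 it called 0 higher and 1 lower, miR-3059-3p, which lay at the floor on every IMB and DOX array, so that this call rests on no measured spread.

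**Figure D1:**
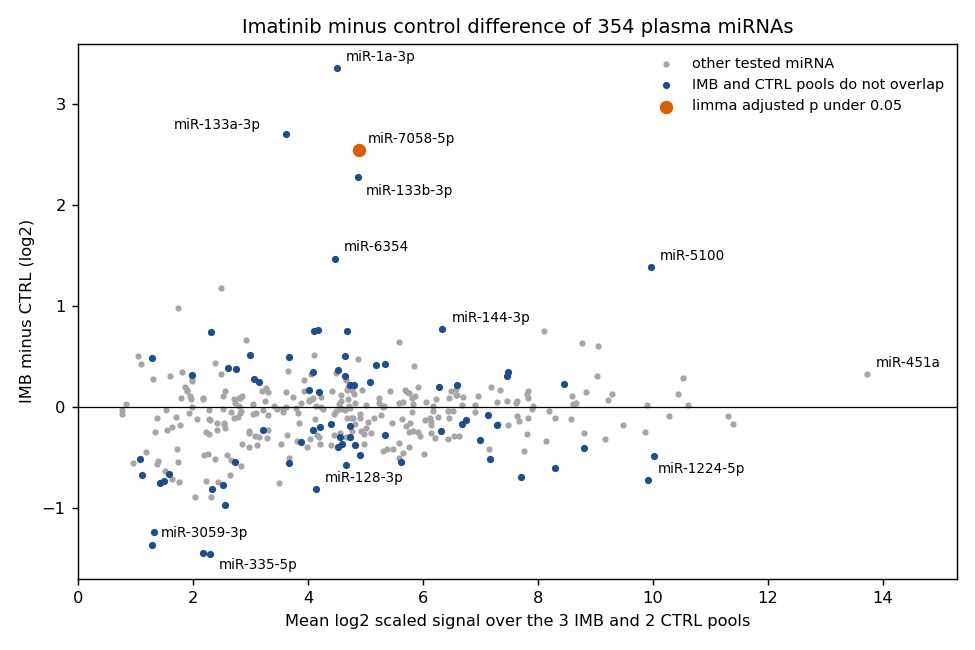
Difference between imatinib and control plasma (vertical axis, log2) against the mean log2 scaled signal over the 3 IMB and 2 CTRL pools (horizontal axis) for 354 miRNAs. Blue points mark the miRNAs whose IMB and CTRL pools do not overlap, and the orange point is miR-7058-5p at 2.54, the only one past the limma threshold. miR-1a-3p lies highest at 3.35 and miR-335-5p lowest at -1.45.

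miR-7058-5p was at 5.64, 6.05 and 6.01 in IMB pools 1, 2 and 3 and at 3.50 and 3.23 in CTRL pools 1 and 2. The IMB pools lay close together and all far above both CTRL pools. The difference was 2.54 log2 units (SE 0.25, 95% interval 1.96 to 3.12), a 5.82-fold higher signal, with a limma adjusted p of 0.00386. Within slide row 1 the difference was 2.15 and within row 2 it was 2.80. The mature miRNA lies at chr7:126368013-126368036 on the minus strand (GRCm38.p6), inside Lat, which encodes an adaptor of T cell receptor signalling. Exon boundaries were not used here. Its 24 bases hold 12 guanines. Without CTRL pool 1 or CTRL pool 2 the differences were 2.68 and 2.40 and the limma adjusted p was 0.0578 and 0.068, so the call needs both control pools. It was also lost when undetected miRNAs were not filtered out (limma adjusted p 0.159) and when the red cell index, the log2 signal of miR-451a minus that of miR-23a-3p, was added as a covariate (difference 2.56, limma adjusted p 0.0873). Without IMB pool 1, 2 or 3 it was kept, with differences of 2.67, 2.47 and 2.48.

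The muscle miRNAs had the largest differences but their IMB pools were far apart. miR-1a-3p, abundant in heart and skeletal muscle, was at 5.69, 7.83 and 3.99 in IMB pools 1 to 3 and at 2.64 and 2.33 in the CTRL pools. miR-133a-3p, made from the same transcripts, was at 4.86, 6.50 and 2.72 against 2.01 and 1.99. miR-133b-3p, a close relative encoded within the non-coding gene Lincmd1 on chromosome 1, was at 5.79, 7.42 and 4.14 against 3.34 and 3.67. All 3 were highest in IMB pool 2, intermediate in pool 1 and lowest in pool 3, and even pool 3 lay above both CTRL pools.

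The difference of miR-1a-3p was 3.35 (SE 1.11), a 10.2-fold ratio with a limma adjusted p of 0.341. For miR-133a-3p it was 2.70 (SE 1.01) and for miR-133b-3p 2.28 (SE 0.84), both with a limma adjusted p of 0.411. The SD among IMB pools was 1.93 for miR-1a-3p and 0.22 among CTRL pools. Without IMB pool 2 the differences were 2.35, 1.79 and 1.46, and without IMB pool 3 they were 4.27, 3.68 and 3.10. With no scaling between arrays miR-1a-3p and miR-133a-3p passed the test (limma adjusted p 0.00389 and 0.0293). With that index as covariate the difference of miR-1a-3p was 1.38 (limma adjusted p 0.94). Of the 10 muscle list members on the array only these 3 could be tested. miR-206-3p of skeletal muscle and miR-133a-5p were each detected in 1 IMB pool and in no CTRL pool. Of the miRNAs of myosin genes, miR-208a-3p, miR-208b-3p and miR-499-5p were detected in none of the 5 arrays. The other arm miR-208a-5p, which is not on the list, was lower in every IMB pool than in either CTRL pool.

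Several other miRNAs had IMB pools wholly above the CTRL pools without passing the test. miR-6354 was at 4.49, 5.36 and 5.31 in IMB and at 3.91 and 3.26 in CTRL, a difference of 1.47 (SE 0.33, limma adjusted p 0.215). IMB pool 1 was the lowest of the IMB pools, and without it the difference was 1.75 and passed with a limma adjusted p of 0.0496. miR-5100, encoded within Mief2, was at 10.02, 10.98 and 10.56 against 9.27 and 9.00, a difference of 1.39 (SE 0.36, limma adjusted p 0.275). Its IMB pools spanned more than the gap between the lowest of them and CTRL pool 1. miR-212-3p, a miRNA induced by CREB signalling, was at 4.03, 4.52 and 4.87 against 3.51 and 3.92. miR-378a-3p, which lies in the gene of the metabolic coactivator PGC-1β, was at 4.61, 5.54 and 4.78 against 4.27 and 4.17. Both differed by 0.76 (limma adjusted p 0.411), and for miR-212-3p IMB pool 1 lay close to the higher CTRL pool.

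miR-202-3p and miR-7211-3p differed less but had tight pools. miR-202-3p, known from the gonads, was at 3.83, 3.89 and 3.89 in IMB against 3.37 and 3.38 in CTRL, a difference of 0.49 (SE 0.14, limma adjusted p 0.331). miR-7211-3p was at 3.21, 3.23 and 3.14 against 2.81 and 2.54, a difference of 0.52 (SE 0.15, limma adjusted p 0.331). For both the gap between the groups was wider than the spread of the IMB pools. Among the dimmest of 3 equal classes by signal, miR-7052-5p had the largest positive difference, 1.18 (SE 0.75, limma adjusted p 0.662). It was undetected in CTRL pool 1 and at 2.83 in CTRL pool 2, inside the IMB range of 2.61 to 3.38.

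miR-144-3p, which is processed with miR-451a from one erythroid transcript, had even IMB values above both CTRL pools. It was at 6.68, 6.60 and 6.65 in IMB and at 5.99 and 5.76 in CTRL. The spread of the IMB pools was far smaller than the gap to CTRL, and the difference was 0.77 (SE 0.17), a 1.71-fold ratio with a limma adjusted p of 0.215. Within row 1 it was 0.70 and within row 2 it was 0.87. Its partner miR-451a was at 13.95, 13.96 and 13.65 in IMB and at 13.90 and 13.16 in CTRL, so that CTRL pool 1 lay inside the IMB range (difference 0.32, SE 0.29, limma adjusted p 0.792). miR-486a-5p, another erythroid miRNA, differed by 0.31 (SE 0.39, limma adjusted p 0.897) and miR-16-5p by 0.02 (SE 0.25, limma adjusted p 0.989), both with overlapping pools. Without CTRL pool 2 the differences of miR-451a and miR-486a-5p were -0.05 and -0.08.

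Red cells can break when blood is drawn and add their miRNAs to plasma. The red cell index was 3.91, 4.45 and 3.90 in IMB and 3.84 and 3.18 in CTRL. Every IMB pool was above both CTRL pools, IMB pools 1 and 3 by only a small margin over CTRL pool 1. Part of the gap lay in miR-23a-3p, at 10.04, 9.51 and 9.75 in IMB and at 10.06 and 9.97 in CTRL. In IMB pool 3 miR-451a itself, at 13.65, was below CTRL pool 1 at 13.90. The means were 4.09 ± 0.32 (SD, n = 3) and 3.51 ± 0.47 (SD, n = 2), a difference of 0.57 with an exact 2-sided permutation p of 0.1, the smallest these group sizes allow. Of the 11 red cell list members on the array 9 were tested, 6 with a higher and 3 with a lower IMB mean and 0 called, with a median of 0.17 that was -0.28 without CTRL pool 2. Their summed log2 signal ran from 13.86 to 14.20 in IMB and from 13.44 to 14.16 in CTRL. With the index as covariate the difference of miR-144-3p was 0.69 (limma adjusted p 0.762), that of miR-451a -0.18 and that of miR-7058-5p 2.56. The index contains miR-451a, whose value there is set in part by construction. How far red cell release sets these differences was not otherwise tested.

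No miRNA fell past the threshold. The largest negative differences lay among dim miRNAs, some at the floor in part of the IMB pools. miR-335-5p, encoded within the imprinted gene Mest on chromosome 6, was undetected in IMB pool 1, at 2.18 and 2.20 in the other IMB pools and at 2.91 and 3.41 in CTRL. Its difference was -1.45 (SE 0.46, limma adjusted p 0.341), and without IMB pool 1 it was -0.97. miR-294-5p, from a cluster known for its activity in embryonic stem cells, was also undetected in IMB pool 1, at 2.32 and 1.73 in the others and at 2.95 and 3.11 in CTRL. Its difference was -1.44 (SE 0.45, limma adjusted p 0.341), and -1.01 without IMB pool 1. Both differences were smaller without IMB pool 1, and IMB pools 2 and 3 still lay below both CTRL pools. With normexp background correction they were -0.036 for miR-335-5p and 0.026 for miR-294-5p.

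miR-3059-3p, encoded within Mgat4c on chromosome 10, was the only miRNA detected in every pool of one group and in none of the other. It was at 2.88 and 1.30 in CTRL and undetected in all IMB pools. For each IMB array the higher of the floor and the lowest detected signal was taken in its place. The lowest detected signals were 0.81, 0.01 and 0.24 in IMB pools 1, 2 and 3, so pools 2 and 3 entered at the floor of 0.73. On means of log2 values the IMB signal so set was 2.52-fold lower than CTRL (limma adjusted p of the fitted difference 0.331). An undetected signal need not lie below these limits. The CTRL pools were themselves far apart, and the fitted difference was -0.56 when CTRL pool 1 was left out and -2.15 when CTRL pool 2 was. All its IMB and DOX values lie at the floor with no spread between pools, so the floor sets the size of that difference. miR-219a-5p, a miRNA of myelin-forming oligodendrocytes, was detected in 1 IMB pool only, at 0.99, and at 1.69 and 2.42 in CTRL (difference -1.23, SE 0.38, limma adjusted p 0.341). miR-7a-1-3p was likewise detected in 1 IMB pool, at 1.04, against 1.72 and 1.29 in CTRL (difference -0.67, SE 0.19, limma adjusted p 0.331).

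Other miRNAs with lower IMB values were detected on all 5 arrays. miR-511-3p, encoded within Mrc1, the gene of the macrophage mannose receptor, was at 2.56, 1.85 and 2.07 in IMB and at 3.20 and 3.05 in CTRL. The difference was -0.97 (SE 0.24, limma adjusted p 0.259). IMB pool 1 was the nearest to CTRL, and without it the difference was -1.17 and passed with a limma adjusted p of 0.0496. miR-128-3p, enriched in neurons, has 2 loci, and that on chromosome 1 lies within R3hdm1. It was at 3.97, 3.72 and 3.74 in IMB against 4.45 and 4.79 in CTRL. Its difference was -0.81 (SE 0.20), a 1.75-fold lower signal with a limma adjusted p of 0.259, and it was -0.48 within row 1 and -1.06 within row 2. The 3 IMB pools lay within 0.5 log2 units of each other and below both CTRL pools.

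Among bright miRNAs the largest negative difference was that of miR-1224-5p, encoded within Vwa5b2 on chromosome 16. It was at 9.65, 9.57 and 9.68 in IMB and at 10.31 and 10.39 in CTRL, a difference of -0.72 (SE 0.16, limma adjusted p 0.215). The pools of each group lay much closer to each other than to the other group, and with normexp background correction it passed the test (difference -0.75, limma adjusted p 0.029). miR-208a-5p, encoded within the heart myosin gene Myh6, was at 7.21, 7.46 and 7.64 against 8.06 and 8.18 (difference -0.69, SE 0.22, limma adjusted p 0.341). It lay on the opposite side of CTRL from miR-133a-3p and miR-1a-3p, and its other arm miR-208a-3p was not detected in any IMB or CTRL pool. miR-5128, encoded within Strbp, was at 8.08, 8.11 and 7.98 against 8.80 and 8.51 (difference -0.60, SE 0.18, limma adjusted p 0.341). miR-669f-3p differed by -0.80 and miR-3067-3p, encoded within Smoc1, by -0.57, with groups that did not overlap and limma adjusted p of 0.341 and 0.411.

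**Figure D2:**
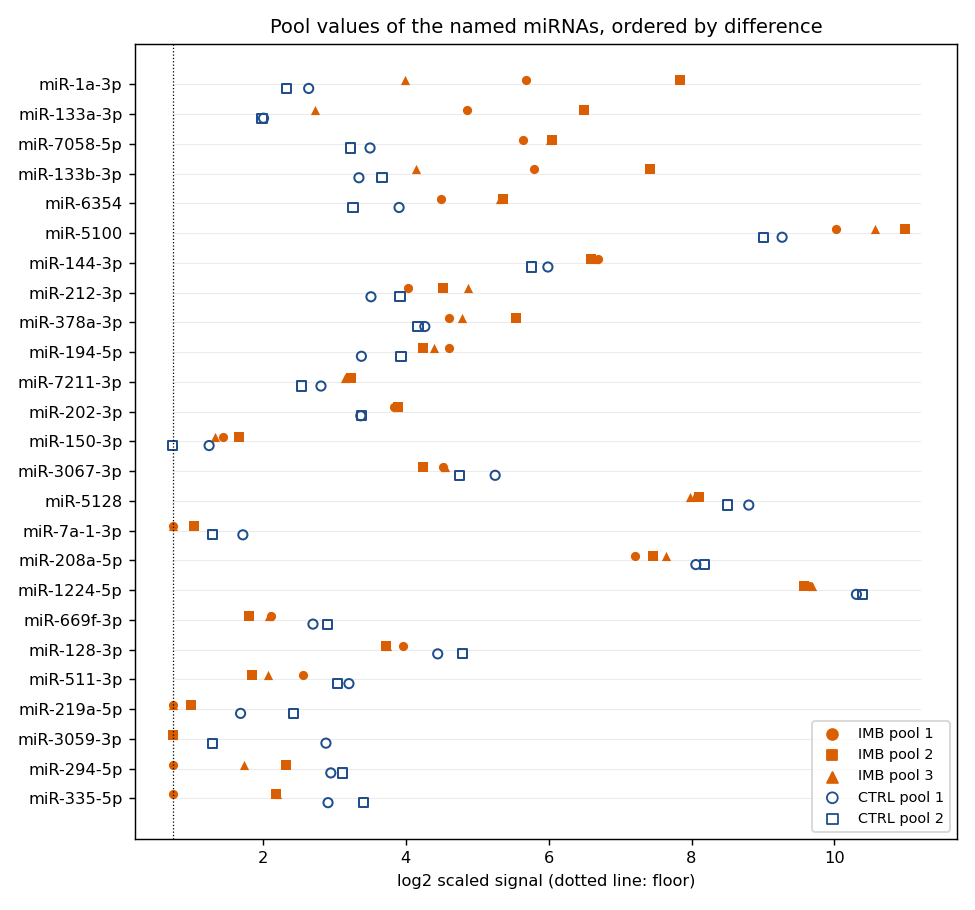
The log2 scaled signal (horizontal axis) of each IMB pool (filled) and CTRL pool (open) for the miRNA past the threshold and those with an unadjusted p under 0.05 named by rule, ordered by their difference from miR-1a-3p to miR-335-5p. The dotted line marks the floor at 0.73, where undetected miRNAs lie. The IMB pools of miR-1a-3p span 3.99 to 7.83, while those of miR-1224-5p span 9.57 to 9.68.

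Grouped by the tissue a miRNA is known from, the platelet, white cell and vessel lists had negative medians and the muscle, liver and red cell lists positive ones, with no member called in any list. Scaling to a reference pair, miR-24-3p and miR-23a-3p, moved the median of all 354 miRNAs to 0.20 and no scaling moved it to -0.18, so list medians are best read against that of all miRNAs. Platelet miRNAs had 4 of 4 tested members lower with a median of -0.28, which was -0.24 relative to all miRNAs. Myeloid miRNAs had 7 of 7 lower with a median of -0.37. For the myeloid list the per-pool medians against the CTRL mean were -0.13, -0.57 and -0.25, so all pools had the same sign. Without IMB pool 2 the medians were -0.15 for the platelet and -0.20 for the myeloid list. The platelet and myeloid lists share 2 tested members, miR-223-3p and miR-21a-5p.

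miR-21a-5p, a miRNA of many tissues and abundant in myeloid cells, was at 10.15, 9.49 and 9.84 in IMB and at 10.23 and 10.40 in CTRL. All IMB pools were lower, IMB pool 1 by less than 0.1, and the difference was -0.49 (SE 0.28, limma adjusted p 0.662). miR-223-3p, which restrains granulocyte production, was at 9.22, 8.78 and 9.09 against 9.60 and 9.10, with overlapping groups and a difference of -0.31 (SE 0.22, limma adjusted p 0.727), which was -0.063 without CTRL pool 1. Lymphocyte miRNAs had 2 of 9 tested members higher and 7 lower, with a median of -0.39 and pool medians of 0.16, -0.38 and -0.56. That median was -0.18 without CTRL pool 2 and -0.20 without IMB pool 2. miR-150-5p, the miRNA of mature B and T cells, was at 7.81, 6.53 and 6.63 in IMB and at 7.62 and 7.18 in CTRL. IMB pool 1 was above both CTRL pools and the other IMB pools below both, and the difference was -0.41 (SE 0.39, limma adjusted p 0.825), or -0.82 without IMB pool 1 (limma adjusted p 0.113). Its passenger strand miR-150-3p, dim throughout, differed by 0.49 (SE 0.20, limma adjusted p 0.501), with IMB values of 1.45, 1.66 and 1.32 against 1.25 and the floor.

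Endothelial miRNAs had 4 of 4 tested members lower with a median of -0.25, which was 0.0050 when scaled to the reference pair and -0.20 relative to all miRNAs under either scaling. miR-126a-5p of the Egfl7 gene was at 4.25, 4.19 and 4.65 against 4.71 and 4.80 (difference -0.39, SE 0.18, limma adjusted p 0.662). The guide strand miR-126a-3p had IMB pools on both sides of CTRL (7.78, 8.18 and 8.80 against 8.33 and 8.40, difference -0.11, SE 0.28, limma adjusted p 0.975). The mesenchymal and smooth muscle list had 1 of 6 tested members higher and a median of -0.34, with pool medians of -0.82, -0.12 and 0.25, and without IMB pool 1 its median was 0.07. Its brightest member, miR-199a-3p, was at 5.79, 5.96 and 6.49 against 6.49 and 6.28, a difference of -0.31 (SE 0.27, limma adjusted p 0.792). In this list the sign of the median thus depended on IMB pool 1. The brain list had 3 of 3 tested members lower with a median of -0.81, which is the value of miR-128-3p. Of the others, miR-219a-5p was tested only through CTRL, and miR-132-3p, also on the myeloid list, differed by -0.07. Under the alternatives the brain median ranged from -0.98 to -0.13. The defining neuronal members miR-9-5p, miR-124-3p and miR-137-3p were detected on none of the 5 arrays.

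Liver miRNAs had 5 of 6 tested members higher with a median of 0.39, and pool medians of 0.59, 0.44 and -0.02. Without IMB pool 1 the median was 0.094, with 3 of 6 higher. miR-122-5p, the main miRNA of hepatocytes, was at 10.06, 9.71 and 8.08 in IMB and at 8.54 and 8.81 in CTRL. IMB pools 1 and 2 were above both CTRL pools and IMB pool 3 below both, and the difference was 0.61 (SE 0.53, limma adjusted p 0.792). Without IMB pool 3 it was 1.21 (limma adjusted p 0.149), and without IMB pool 1 it was 0.22. miR-194-5p, known from liver, gut and kidney, has 2 loci, and that on chromosome 1 lies within Iars2. It was higher in all IMB pools, at 4.60, 4.23 and 4.40 against 3.38 and 3.93 (difference 0.76, SE 0.30, limma adjusted p 0.498). miR-192-5p, its partner in liver and gut, was at 8.18, 7.63 and 7.75 against 7.53 and 7.91, with overlapping groups (difference 0.13, SE 0.23, limma adjusted p 0.97). The order of the pools differed from that of the muscle miRNAs, with IMB pool 1 highest in place of pool 2.

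Gut and kidney miRNAs had 3 of 5 tested members higher with a median of 0.11, which was -0.035 with no scaling, -0.029 without IMB pool 1 and -0.064 without CTRL pool 1. Relative to all miRNAs that median was 0.15 both as scaled here and with no scaling, 0.04 without IMB pool 1 and -0.01 without CTRL pool 1. Within that list miR-10b-5p, from the Hoxd cluster, was at 5.09, 5.29 and 5.32 against 5.61 and 5.41 (difference -0.27, SE 0.17, limma adjusted p 0.662). Epithelial miRNAs had 5 of 7 higher with a median of 0.12, which was -0.03 with no scaling. Relative to all miRNAs it was 0.16 as scaled here and 0.15 with no scaling. miR-205-5p of skin and other stratified epithelia was at 6.39, 5.52 and 5.59 against 6.43 and 6.15 (difference -0.46, SE 0.28, limma adjusted p 0.662). Of the pancreas and endocrine list only miR-375-3p was tested, with a difference of 0.04, and 4 members of the Dlk1-Dio3 imprinted cluster were tested, with a median of -0.28 that was 0.01 without IMB pool 1. The brightest of that cluster, miR-370-3p, differed by 0.03. miR-210-3p, the hypoxia miRNA, differed by -0.12 (SE 0.24, limma adjusted p 0.975).

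**Figure D3:**
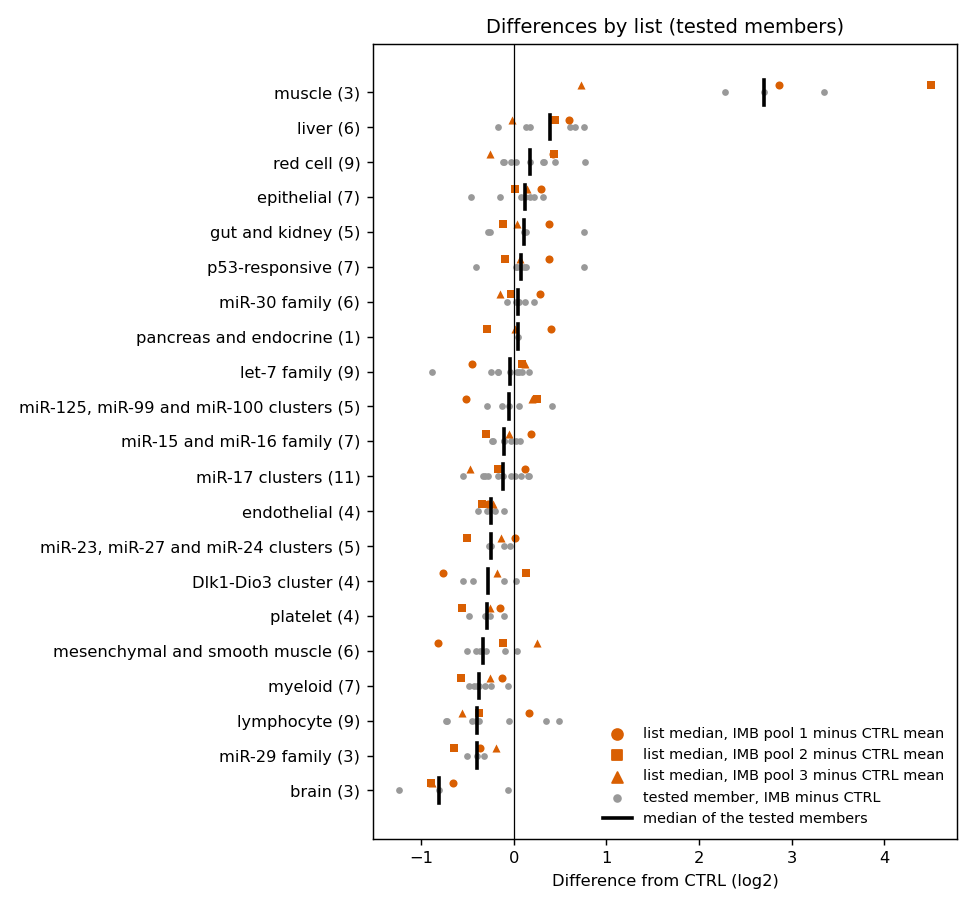
Difference from CTRL in log2 units (horizontal axis) for the tested members of each list (grey points), their median (black bar) and the list median in each IMB pool against the CTRL mean (orange symbols), with the number of tested members in brackets. The muscle list has a median of 2.70 with pool medians from 0.72 to 4.50, and the mesenchymal list has pool medians from -0.82 to 0.25.

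Seed families gave the same members another grouping. Among the 301 tested miRNAs with a listed sequence, 10 families had 3 or more members and held 43 miRNAs. None had a member called. The miR-29 family, known for targeting collagen messages, had 3 of 3 tested members lower, with differences from -0.50 to -0.33. miR-29a-3p was at 8.83, 8.40 and 8.70 in IMB and at 8.98 and 9.11 in CTRL (difference -0.40, SE 0.22, limma adjusted p 0.662), and miR-29c-3p differed by -0.33 (SE 0.20, limma adjusted p 0.662). Both had all IMB pools below both CTRL pools. The family with seed AGUGCAA, which holds miR-130a-3p, miR-130b-3p, miR-301a-3p and miR-721, had 4 of 4 lower, with a median of -0.33 and differences from -0.51 to -0.04. In 2 of them the groups did not overlap. Over all tested miRNAs 21.8% did not overlap in either direction.

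The family with seed AAUACUG, the epithelial miR-200b-3p, miR-200c-3p and miR-429-3p that repress the ZEB factors, had 3 of 3 higher with non-overlapping groups. Their differences were small, from 0.17 to 0.32. Over all tested miRNAs 9.89% had every IMB pool above both CTRL pools. miR-200b-3p was at 5.06, 4.75 and 4.82 in IMB and at 4.63 and 4.69 in CTRL (SE 0.19, limma adjusted p 0.792), and miR-429-3p was at 4.20, 3.99 and 4.04 against 3.83 and 3.98. IMB pool 2 lay within 0.1 of the higher CTRL pool in both. The let-7 family, broad regulators of cell growth, had 4 of 9 tested members higher and a median of -0.04, with pool medians of -0.45, 0.09 and 0.12. Its brightest member let-7c-5p was at 7.32, 8.10 and 8.14 against 7.88 and 7.65, so that IMB pool 1 lay below both CTRL pools and the other IMB pools above both. let-7i-5p had even pools, at 7.24, 7.24 and 7.19 against 7.41 and 7.38 (difference -0.17, SE 0.16, limma adjusted p 0.802).

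Most of the remaining families and clusters had medians within 0.1 log2 units of that of all miRNAs. The exceptions were the miR-181 family and the miR-23, miR-27 and miR-24 clusters. The miR-181 family, which is part of the lymphocyte list, had 1 of 4 tested members higher with a median of -0.39. Its differences ran from -0.73 to 0.35, and 2 of its members were undetected on at least 1 of the 5 arrays. The miR-15 and miR-16 family had 2 of 7 tested members higher with a median of -0.10, and the growth-promoting miR-17 clusters 4 of 11 with a median of -0.11. Scaled to the reference pair, which moves all miRNAs together, these medians were 0.15 and 0.14 and that of let-7 was 0.21. Relative to all miRNAs they were -0.058 and -0.070 as scaled here and -0.051 and -0.064 with the reference pair. Without IMB pool 3 the miR-17 median was 0.11. miR-92a-3p of the miR-17 clusters was at 9.09, 8.41 and 8.08 against 8.85 and 8.43. The miR-30 family had 5 of 6 higher with a median of 0.05, which was -0.10 with no scaling and -0.11 without IMB pool 1 (2 of 6 higher). Relative to all miRNAs these medians were 0.094, 0.085 and -0.039. miR-30a-5p differed by 0.04 (SE 0.20, limma adjusted p 0.975) and miR-30b-5p by -0.07. The miR-23, miR-27 and miR-24 clusters had 5 of 5 lower with a median of -0.25, which was 0.0031 when scaled to the reference pair, itself part of the list. Relative to all miRNAs it was -0.20 under either scaling. The miR-125, miR-99 and miR-100 clusters had 2 of 5 higher with a median of -0.05, which was 0.25 without IMB pool 1 and 0.20 when scaled to the reference pair. Relative to all miRNAs these medians were -0.0078, 0.32 and -0.0015. Within these clusters miR-125a-3p was at 5.20, 5.31 and 5.51 against 4.92 and 4.92 (difference 0.42, SE 0.17, limma adjusted p 0.501), above both CTRL pools throughout, while miR-125b-5p differed by -0.13.

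By signal, the quartiles of the difference were -0.47 and 0.11 among dim miRNAs, -0.25 and 0.17 in the middle class and -0.23 and 0.12 among bright ones. In 3 classes of 118 miRNAs by mean signal, the median difference was -0.10 in the dim, -0.01 in the middle and -0.04 in the bright class. The median SD within groups was 0.43 in the dim class against 0.26 and 0.27 in the others. All 4 differences under -1 were in the dim class and belonged to miRNAs tested only through CTRL, of which there were 37, against 3 tested only through IMB. Of the 7 differences over 1 the middle class held 5, miR-1a-3p, miR-133a-3p, miR-7058-5p, miR-133b-3p and miR-6354. Non-overlapping groups made up 18.6% of the dim, 29.7% of the middle and 16.9% of the bright class. Of the dim class 40 miRNAs were undetected on at least 1 of the 5 arrays, and of the other classes none.

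By name, miRNAs with numbers of 5000 and above, which were catalogued later, had a median difference of 0.01 over 99 miRNAs, against -0.09 over the 204 numbered under 1000, let-7 included. The 51 numbered between had a median of -0.09. In IMB pools 1, 2 and 3 the median against the CTRL mean was -0.08, 0.08 and 0.05 for the highest numbers and 0.03, -0.10 and -0.17 for the lowest, so the order was the reverse in IMB pool 1. By sequence, the 100 miRNAs with the lowest share of guanine had a median of -0.14, and 33 of them had a higher IMB mean. The middle 100 had a median of 0.01 with 51 higher, and the 101 with the highest share had -0.02 with 49 higher. The pool medians were 0.02, -0.22 and -0.16 for the lowest share and -0.06, 0.04 and 0.04 for the highest, again in the reverse order in IMB pool 1. Across the 301 miRNAs with a sequence the Spearman correlation with the difference was 0.14 for guanine share and 0.21 for the share of guanine and cytosine. Both describe miRNAs measured on the same arrays, which share scaling and pools and are not independent replicates. miR-7058-5p was in the class with the highest share, and miR-133b-3p in that with the lowest, at 13.6% guanine.

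Agreement between the IMB pools was limited. All 3 IMB pools lay above the CTRL mean for 55 miRNAs and below it for 78, and for 221 they lay on both sides. For 130 miRNAs no IMB pool was above both CTRL pools, for 109 it was 1 pool, for 80 it was 2 and for 35 all 3. Below both CTRL pools were no IMB pool for 98 miRNAs, 1 for 104, 2 for 110 and all 3 for 42. Without IMB pool 1 the counts with non-overlapping groups were 88 higher and 115 lower, against 38 and 54 without IMB pool 2 and 59 and 67 without IMB pool 3. With fewer pools more miRNAs fail to overlap by construction, and of the 3 omissions that of IMB pool 1 gave the most. In IMB pool 2 the departures from the other IMB pools were largest for miR-1a-3p (3.00), miR-133a-3p (2.71) and miR-133b-3p (2.45). In IMB pool 3 the same muscle miRNAs and miR-122-5p (-1.81) were among the 6 with the most negative departures.

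**Figure D4:**
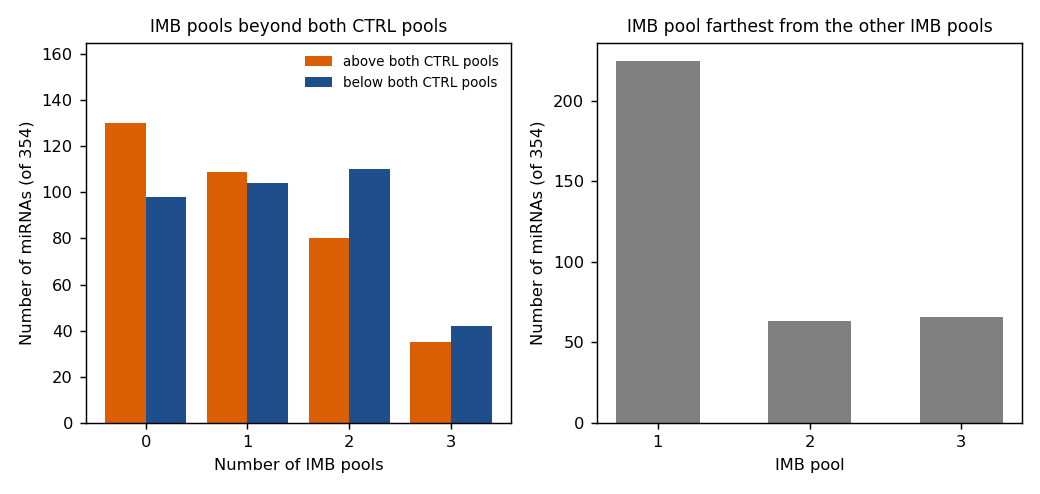
Left, the number of the 354 miRNAs for which 0, 1, 2 or 3 IMB pools lie above both CTRL pools (orange) or below both (blue), with 35 and 42 miRNAs for all 3 pools. Right, the number of miRNAs for which each IMB pool is the farthest from the other IMB pools, 225 for pool 1, 63 for pool 2 and 66 for pool 3.

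The DOX arrays, which share the controls and the estimate of spread, give the levels of the same miRNAs under another drug. miR-7058-5p was at 4.21, 4.90 and 4.76 in DOX pools 1, 2 and 3, between the CTRL and IMB pools. It was higher in IMB than in DOX by 1.28 (SE 0.22, limma adjusted p 0.0378), while DOX exceeded CTRL by 1.26 (SE 0.25, limma adjusted p 0.105). miR-144-3p was at 5.54, 5.30 and 5.60 in DOX and higher in IMB by 1.17 (SE 0.15, limma adjusted p 0.00744). DOX was below CTRL by 0.40 log2 units for that miRNA (limma adjusted p 0.446), so its level in IMB exceeded that of both other groups in every pool.

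miR-1a-3p was at 5.90, 3.47 and 3.72 in DOX, above both CTRL pools as in IMB, and IMB exceeded DOX by 1.47 (SE 0.99, limma adjusted p 0.619). miR-133a-3p, miR-133b-3p and miR-5100 also lay above both CTRL pools in every DOX pool. For them IMB exceeded DOX by 0.78, 0.65 and 0.36 (limma adjusted p 0.745, 0.745 and 0.655). The DOX pools of miR-6354 overlapped CTRL, and IMB exceeded DOX by 1.21 (limma adjusted p 0.115). miR-34a-5p, which p53 induces, was high in the DOX pools only. It was at 5.42, 5.55 and 6.01 in DOX, at 3.55, 2.74 and 2.88 in IMB and at 3.12 and 2.94 in CTRL. IMB and CTRL overlapped (difference 0.03, SE 0.29, limma adjusted p 0.988), and IMB was lower than DOX by 2.60 log2 units (limma adjusted p 0.00194). The p53-responsive list had 6 of 7 tested members with a higher IMB than CTRL mean and a median of 0.08, which was -0.06 with no scaling. Relative to all miRNAs it was 0.12 in both cases. miR-205-5p was at 7.40, 7.17 and 7.35 in DOX and lower in IMB than in DOX by 1.47 log2 units (SE 0.25, limma adjusted p 0.0378). miR-3059-3p was undetected in all DOX pools, as it was in all IMB pools.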

How the data were processed

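Total RNA of plasma pools was hybridised to 1-colour Agilent miRNA arrays, 8 on 1 slide. The deposited scanner files hold intensity on a linear scale, read from the scans by the authors (the submitters' processing notes name Agilent Feature Extraction 11.5.1.1). Of the 58594 spots on an array 56430 were non-control, and none was saturated. Undetected miRNAs carry a total signal of 0.1. The authors' own deposited values are log2 values, made by steps not given in the sources used here, and served as an alternative. Their array medians were -3.23, -3.32 and -3.29 for IMB and -3.28 and -3.32 for CTRL, and over detected miRNAs they ranked as the total signal did (Spearman rho 1 on each array). Their scaling between arrays and centring are unknown.

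Total gene signals were divided by each array's 75th percentile over the 296 miRNAs detected on all 8 arrays, brought back to a common level, given a lower limit of 1.66 (0.73 in log2, taken as the median of the arrays' 1st percentiles of detected signals), then log2 transformed. miRNAs at that limit have no order. The 2-sided test of limma 3.58.1 (lmFit, eBayes; R 4.3.3) was fitted to all 8 arrays, because 2 controls alone give a poor estimate of spread, with a threshold of 0.05, 5 residual and 2.61 prior degrees of freedom. Numbers with 1 value per array were tested by exact permutation. Only the limma step was run on simulated log2 values with known changes, drawn with independent noise. Scaling, the detection filter, the floor and effects shared within a pool were not simulated. Figures were drawn with matplotlib 3.10.9. The number of arrays limits the precision.

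Named were the miRNAs past the threshold, up to 12 more per direction with an unadjusted p under 0.05 and groups that did not overlap, up to 4 bright members per list, a fixed set of markers, miRNAs detected in one group only, and the largest differences per signal class. Of the list members so eligible, the text gives values for the brightest of each list and for those whose groups did not overlap, a choice made after their values were seen. Members and lists were chosen with earlier results of these data known. Alternatives covered the signal, background, scaling, filter, floor, samples in the fit, variance model, a covariate, blocks, the deposited values of the authors and omission of each array. Omission of miRNAs at the lower limit was added after seeing the data.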

Additional observations from a re-analysis of the deposited data

How the results depend on the processing

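The count of miRNAs past the threshold was 1 higher and 0 lower. It was 3 higher with no scaling (miR-7058-5p, miR-1a-3p and miR-133a-3p), 0 higher with no filter on detection (14 higher and 18 lower at an unadjusted limma p under 0.05) and 0 higher with the red cell index as covariate (8 and 12). It was 1 lower with normexp background correction (miR-1224-5p) and 1 lower with a floor 4 times lower (miR-3059-3p, all of whose IMB and DOX values lie at the floor, which sets the size of its difference). Leaving out each pool gave 0 to 3 higher and 0 to 1 lower. The cause was not tested. Without IMB pool 1 the calls were miR-7058-5p, miR-6354, miR-327 and miR-511-3p, and without CTRL pool 2 only miR-3059-3p, with no measured spread. Before adjustment, limma's p was under 0.05 for 28 higher and 4 lower when scaled to the reference pair miR-24-3p and miR-23a-3p, against 15 and 15. The difference in detected miRNAs per array was -5.17 and ranged from -25.5 to 14.5 with each pool left out.

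Of 55 named miRNAs, 36 kept their direction under every alternative run for them, miR-7058-5p among them with differences from 1.19 (normexp) to 2.79. The others reversed under these settings, all from differences that did not pass the test. With processed signal per probe miR-16-5p was -0.0063. With normexp miR-294-5p was 0.026, miR-511-3p 0.060, miR-669f-3p 0.039 and miR-16-5p -0.031. With quantile normalization miR-375-3p was -0.029 and miR-370-3p -0.0020, and in the authors' deposited table -0.033 and -0.014. With no scaling miR-16-5p was -0.12, miR-192-5p -0.013, miR-375-3p -0.10, miR-370-3p -0.12, let-7c-5p -0.055, miR-30a-5p -0.10 and miR-34a-5p -0.12. With median scaling miR-16-5p was -0.026, miR-375-3p -0.0048, miR-370-3p -0.020, miR-30a-5p -0.0034 and miR-34a-5p -0.019. Scaled to the reference pair, miR-92a-3p was 0.14, miR-126a-3p 0.14, let-7i-5p 0.079, miR-30b-5p 0.18, miR-23a-3p 0.0031, miR-125b-5p 0.12 and miR-210-3p 0.14. With the red cell index as covariate miR-451a, part of that index, was -0.18, miR-16-5p -0.32, miR-486a-5p -0.35, let-7c-5p -0.15 and miR-210-3p 0.21.

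Deviations from the group means correlated by 0.10 between IMB and CTRL pools numbered 1 and by -0.01 between those numbered 2. With only 2 CTRL pools their deviations mirror each other, so these values cannot decide whether the numbers pair pools. The numbers were not taken to pair pools, because the labels do not say so. With the replicate number as a block, which the labels do not say pairs pools, 1 miRNA was higher and 0 lower (miR-7058-5p 2.48, limma adjusted p 0.020). miR-92a-3p was 0.028, miR-375-3p -0.025, miR-370-3p -0.049 and miR-34a-5p -0.016. Leaving out each pool, differences ranged from -0.28 to 0.32 for miR-16-5p, -0.38 to 0.13 for miR-126a-3p, -0.057 to 0.32 for miR-192-5p, -0.14 to 0.21 for miR-375-3p, -0.12 to 0.17 for miR-30a-5p, -0.30 to 0.059 for miR-125b-5p, -0.22 to 0.19 for miR-34a-5p, -0.055 to 0.36 for let-7c-5p, -0.40 to 0.11 for miR-92a-3p, -0.16 to 0.18 for miR-370-3p, -0.049 to 0.70 for miR-451a, -0.084 to 0.71 for miR-486a-5p and -0.24 to 0.011 for miR-210-3p.

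Scaling to the 75th percentile over all miRNAs could not be run, because that percentile equals the value given to undetected miRNAs. Normexp used the median spot signal, the mean spot signal being not used here. With 1 CTRL pool left, the lone sample is assumed to vary like the other groups. Dim miRNAs, with a median SD of 0.43 within groups, limit what small differences can be seen.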
